A study of Mus musculus with 26 samples.

Results

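The guanylate-binding proteins (GBPs) and the immunity-related GTPases (IRGs) are 2 families of GTPases whose genes are switched on by interferons. Interferon-γ binds its receptor, the receptor signals through the kinases JAK1 and JAK2, and the signal reaches promoters through GAS elements. It also induces IRF1, which binds the related ISRE element, as do the factors that type I interferons activate. The GTPase proteins coat vacuoles and bacteria inside cells, and in T cells and macrophages they are a usual readout of interferon exposure. The 10 genes described here were named as a list by mouse symbol and found through their Ensembl identifiers, and all 10 were among the 55416 genes of the count tables. They comprise the GBP genes Gbp2, Gbp3, Gbp5, Gbp7 and Gbp8, the IRG effectors Iigp1 and Tgtp2, and the IRG regulators Igtp, Irgm1 and Irgm2, whose proteins sit on the cell's own membranes and hold the effectors inactive there. In the GENCODE M21 annotation Gbp2, Gbp3, Gbp5 and Gbp7 lie on chromosome 3, Gbp8 lies on chromosome 5, Igtp, Irgm1, Irgm2 and Tgtp2 lie on chromosome 11, and Iigp1 lies on chromosome 18.

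The RNA came from C57BL/6 mice that had received B16F10, a mouse melanoma line, into a vein, so every group, controls included, carried the melanoma model in its lungs. One arm was given propranolol, which blocks β-adrenoceptors, and the other was untreated. Each arm had 5 libraries of whole lung, 4 of flow-sorted lung monocytes and 4 of lung CD4 T cells isolated on magnetic beads, 26 libraries in all, with 17625672 to 48306925 counts each. The labels state neither dose, duration of treatment nor age. They also leave unsaid if replicate libraries derive from different mice, and the p-values therefore reflect only library-to-library spread, which may be technical.

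Markers were read against the labels. The libraries labelled CD4 T cells carried Cd3e at 247 to 379 CPM (read counts scaled to equal library size) and Cd4 at 453 to 603 CPM, and 7 of 16 melanocyte markers, Tyrp1 and Dct among them, were at 0 in all 8. The melanocyte list as a whole still summed to 95.4 to 106 CPM untreated and 89.1 to 101 CPM treated. B cell and plasma cell markers were abundant too. The untreated ones summed to 6507 to 6617 CPM over the T cell list, 8826 to 10155 CPM over the B cell list and 14989 to 16218 CPM over the plasma cell list, so the name of these libraries below is that of their label. Those labelled monocytes carried Csf1r at 403 to 675 CPM, but also the alveolar type 2 gene Sftpc at 1964 to 2385 CPM, the airway gene Scgb1a1 at 2463 to 4586 CPM, the endothelial gene Cdh5 at 1214 to 1820 CPM and the melanocyte gene Tyrp1 at 971 to 1600 CPM, so they were not monocyte RNA alone. In these bulk samples fewer cells of a type and less RNA per cell cannot be told apart. The monocyte libraries also fell into close pairs. Libraries 1 and 2, and libraries 3 and 4, differed by a chi-square of 3.52 to 5.24 per degree of freedom in either arm, against 12.2 to 35.6 for the other pairs. Counts of calls on these are given also with the close libraries summed, an alternative chosen after this was seen. Treated CD4 T cell libraries 1 and 2 each stood apart from 3 and 4, at 37.1 to 50.1, and from one another, at 139, whereas 3 and 4 differed by 5.46. Leaving out any 1 CD4 T cell library left the counts of the 10 genes called there at 9 higher and 1 lower.

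Promoter sequences of 8 of the 10 genes were taken from a RefSeq table on the GRCm38.p6 build. Each covers 250 bases before to 50 bases after a start site, and they are shown because all 8 carry an interferon motif. None was found for Gbp8, and no window of Iigp1 was searched. For Iigp1 this is no finding about the RefSeq table, and the motif counts leave that gene out. The windows were searched on both strands for the GAS letters TTCNNNGAA and the ISRE core, GAAA and GAAA with any 2 bases between them, which reads TTTC and TTTC on the other strand. The ISRE core was found in all 8 genes and the GAS in 5, against 3.44% and 8.30% of 32851 promoter windows in the table, and both motifs were found in 5 genes, against 0.45% of windows. A second start of Gbp3 held neither. A match is a description of the letters and not evidence of binding. The bases before the start are printed 5′ to 3′ along the gene for 6 genes, in lower case with the motif matches in capitals.
Gbp2, chr3:142620413-142620662, plus strand: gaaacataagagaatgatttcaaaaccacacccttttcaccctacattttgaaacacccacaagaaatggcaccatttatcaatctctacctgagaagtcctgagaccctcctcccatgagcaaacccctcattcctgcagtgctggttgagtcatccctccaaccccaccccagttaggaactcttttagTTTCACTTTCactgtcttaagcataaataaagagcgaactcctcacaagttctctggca
Gbp5, chr3:142496684-142496933, plus strand: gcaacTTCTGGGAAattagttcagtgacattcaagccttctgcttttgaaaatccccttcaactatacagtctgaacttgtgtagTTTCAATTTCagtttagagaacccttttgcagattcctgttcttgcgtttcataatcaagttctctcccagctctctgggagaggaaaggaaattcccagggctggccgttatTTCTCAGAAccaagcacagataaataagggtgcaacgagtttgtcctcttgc
Gbp7, chr3:142530086-142530335, plus strand: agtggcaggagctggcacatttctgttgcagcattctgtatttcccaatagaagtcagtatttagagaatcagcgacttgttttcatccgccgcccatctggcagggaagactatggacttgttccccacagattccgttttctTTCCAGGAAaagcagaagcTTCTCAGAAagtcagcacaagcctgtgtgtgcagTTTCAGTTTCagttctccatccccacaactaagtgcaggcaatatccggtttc
Igtp, chr11:58199306-58199555, plus strand: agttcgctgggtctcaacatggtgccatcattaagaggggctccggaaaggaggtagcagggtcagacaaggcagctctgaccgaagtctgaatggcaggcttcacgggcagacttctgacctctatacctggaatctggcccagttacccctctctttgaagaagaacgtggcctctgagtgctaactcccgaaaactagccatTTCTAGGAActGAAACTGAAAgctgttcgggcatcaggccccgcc
Irgm2, chr11:58214727-58214976, plus strand: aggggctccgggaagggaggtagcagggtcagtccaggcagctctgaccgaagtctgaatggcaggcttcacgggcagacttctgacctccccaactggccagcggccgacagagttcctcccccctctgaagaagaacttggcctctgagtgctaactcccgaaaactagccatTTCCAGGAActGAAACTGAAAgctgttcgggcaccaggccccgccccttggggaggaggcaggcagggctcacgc
Irgm1, chr11:48871421-48871670, minus strand: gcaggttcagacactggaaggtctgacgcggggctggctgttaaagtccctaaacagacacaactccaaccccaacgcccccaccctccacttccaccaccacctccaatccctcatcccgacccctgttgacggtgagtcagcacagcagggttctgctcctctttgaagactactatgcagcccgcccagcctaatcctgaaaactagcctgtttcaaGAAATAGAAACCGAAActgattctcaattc
Positions count from the start site. In Igtp a GAS at base -45 stood just before an ISRE core at base -34, in Irgm2 the same order stood at -75 and -64, and in Tgtp2 at -81 and -70. Irgm1 had overlapping ISRE cores at -30 and -24 and no GAS. Among the chromosome 3 genes Gbp2 had an ISRE core alone, at -59, and Gbp3 had overlapping cores at -45 and -39, whereas Gbp5 and Gbp7 each had 2 GAS matches besides an ISRE core, at -165 in Gbp5 and at -53 in Gbp7.

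All 10 genes were read in every library, and their untreated levels differed between the kinds of material. Levels here are CPM scaled within each kind of material by the TMM method, and levels of different genes are compared only per kilobase of exon in GENCODE M21. Per kilobase, Gbp2, a prenylated GBP, was the most abundant in untreated lung at 16.5 ± 3.90 CPM per kb (SD, n = 5), and Gbp8 the least at 0.614 ± 0.290. The next 5 after Gbp2, which were Irgm2, Irgm1, Igtp, Gbp3 and Gbp7, ran from 12.6 to 9.13 CPM per kb, and each had an interval of 1 SD that overlapped its neighbour's. Iigp1 followed at 6.35 ± 0.856, clear of Tgtp2 at 2.17 ± 0.873, and Tgtp2 overlapped Gbp5 at 1.61 ± 0.389. The untreated libraries labelled monocytes kept Gbp2 first at 39.1 ± 1.81 CPM per kb (SD, n = 4), and Iigp1 was the next gene at 26.1 ± 1.26, indistinguishable by SD from Igtp at 25.5 ± 0.755, as Igtp was from Irgm2 at 24.8 ± 1.24. The order in untreated CD4 T cell libraries was another one. Igtp led at 60.5 ± 2.32 CPM per kb, Gbp2 followed at 24.9 ± 0.918 and Gbp7 at 22.3 ± 0.484, and Gbp8 at 20.2 ± 1.25 lay level with Irgm2 at 20.5 ± 0.693.

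**Figure D1:**
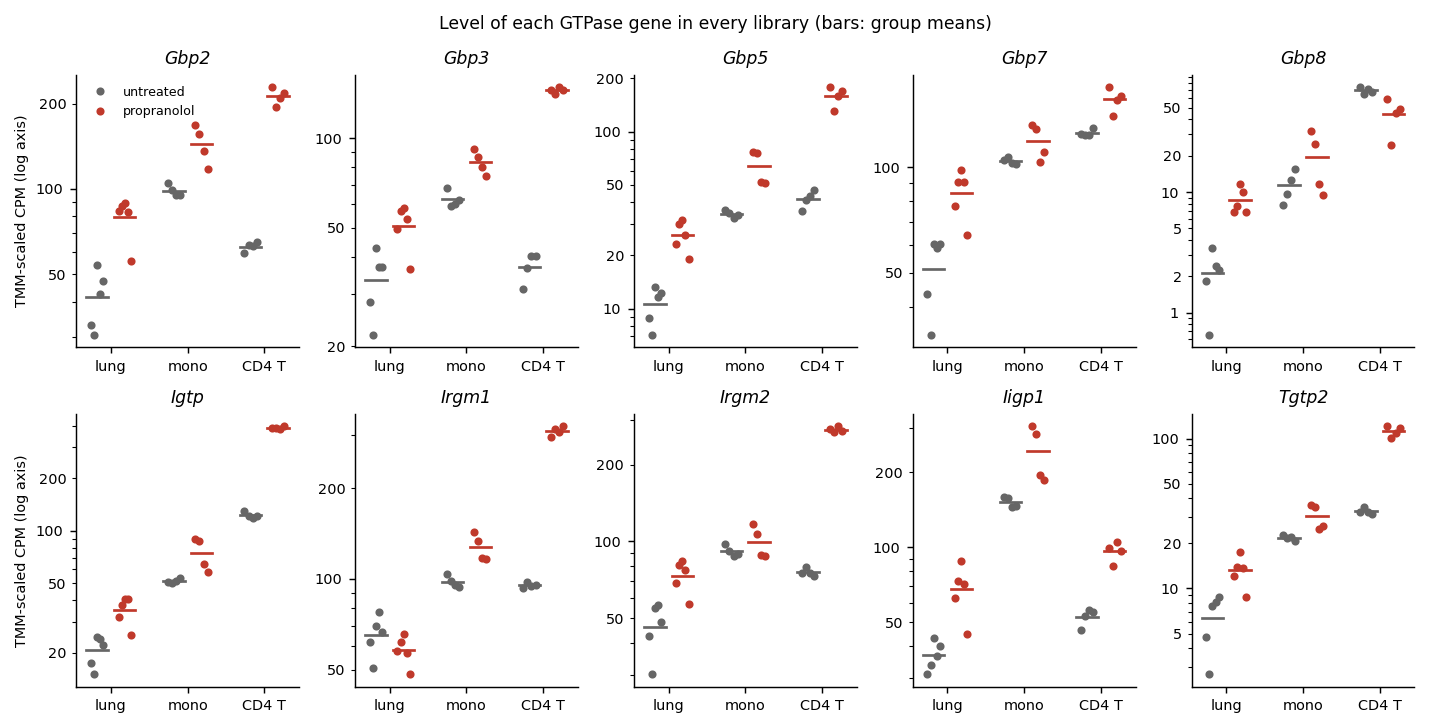
TMM-scaled CPM (log axis) of each of the 10 genes in all 26 libraries, by kind of material, with untreated libraries in grey, propranolol libraries in red and bars at group means. Treated CD4 T cell libraries lie above the untreated ones for 9 genes and below them for Gbp8, and in lung the groups overlap for Gbp3 and Irgm1.

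Untreated, every one of the 10 was higher in the libraries labelled monocytes than in whole lung by edgeR's quasi-likelihood test at an adjusted p under 0.05, where 31.9% of all tested genes were higher and 65.4% were called in either direction. Gbp8 differed most, by a log2 of 2.66 ± 0.35 (SE), and Irgm1 least, by 0.83 ± 0.10. The median of the 10 was 1.52, beside -0.04 over all genes tested. The untreated lungs held more melanocyte transcripts, at 18902 to 30420 CPM over that list. It summed to 4912 to 6166 CPM in the untreated monocyte libraries and 95.4 to 106 CPM in the untreated CD4 T cell libraries. The part of this in the level differences was not tested. With the close monocyte libraries summed all 10 were still called, from 0.83 for Irgm1 to 2.67 for Gbp8. Iigp1, an effector that enters pathogen vacuoles, differed by 2.28 ± 0.10. It was at 30.9, 33.6, 43.4, 36.8 and 40.2 CPM in the 5 untreated lungs and at 159, 157, 145 and 147 CPM in the 4 monocyte libraries. The CD4 T cell libraries exceeded lung for 9 of 10 genes, with a median of 1.17 beside -0.07 over all genes tested, against 39.9% of all tested genes higher, 44.0% lower and 83.9% called, and material and count table cannot be told apart there. Gbp8 stood highest over lung again, by a log2 of 5.19 ± 0.28, from 1.84, 0.652, 3.41, 2.42 and 2.26 CPM in lung to 74.4, 64.7, 71.9 and 67.7 CPM in T cell libraries. Igtp followed with 2.74 ± 0.13, and Gbp3 was not called, with 0.33 ± 0.18 (adjusted p = 0.0986), but it was called without untreated lung library 3 (0.45, adjusted p = 0.0249).

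In whole lung, 9 of the 10 genes were higher after propranolol and Irgm1 was not called. This was in a comparison where 35.5% of the 18639 tested genes were higher, 35.3% lower and 70.8% called in either direction. The median log2 change of the 10 was 0.82, beside 0.03 over all tested genes. The changes of the GBPs ran from 0.61 to 2.02. Gbp8 read 1.84, 0.652, 3.41, 2.42 and 2.26 CPM in the untreated lungs and 6.87, 7.69, 11.8, 10.1 and 6.84 CPM in the treated ones. The groups did not overlap, untreated library 2 was the lowest, and the log2 change was 2.02 ± 0.34 (SE, adjusted p = 0.000434). Gbp5, a GBP tied to inflammasome activation, read 8.87, 7.11, 13.3, 11.7 and 12.3 CPM and then 23.3, 30.2, 31.7, 25.95 and 19.0 CPM. Here too every treated lung exceeded every untreated one, and the change was 1.29 ± 0.19 (adjusted p = 0.000233). Gbp2 rose by 0.94 ± 0.17 and Gbp7, a GBP linked to the phagocyte oxidase, by 0.72 ± 0.17, both without overlap. Gbp3 rose by 0.61 ± 0.18 (adjusted p = 0.0109) with overlapping groups, at 28.1, 21.8, 42.8, 37.0 and 37.1 CPM untreated and 49.5, 56.9, 58.6, 53.6 and 36.3 CPM treated. Treated library 5 lay below untreated libraries 3, 4 and 5.

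The IRG effectors rose in lung, Iigp1 by 0.88 ± 0.16 and Tgtp2, the gene for the effector also called IRGB6, by 1.05 ± 0.29, with no overlap of groups.
Among the regulators, Igtp rose by 0.77 ± 0.17 and Irgm2 by 0.66 ± 0.16. Irgm1 stood apart, at 61.6, 50.4, 69.8, 77.6 and 66.4 CPM untreated and 57.8, 61.9, 65.7, 56.6 and 48.2 CPM treated. The groups overlapped and the change was -0.17 ± 0.12 (adjusted p = 0.213), but without untreated library 2 it was called lower, at -0.26 (adjusted p = 0.0304). Melanoma content differed between the arms as well. The summed CPM of 16 melanocyte markers, all 16 of them lower after treatment, was 30419.8, 26155, 18902, 24821 and 23884 in the untreated lungs and 9815, 4795, 2297, 1294 and 11316 in the treated ones. Treated library 5, which held the most of these transcripts in its group, was the lowest treated lung for all 10 genes. In library order the 10 genes summed to 273, 225, 374, 355 and 345 CPM untreated and 475, 540, 585, 523 and 366 CPM treated. Within an arm these sums did not follow the melanocyte sums library by library. The T cell list (18 of 19 higher) summed to 116 to 166 CPM untreated and 191 to 289 CPM treated, the B cell list (16 of 16 higher) to 115 to 218 CPM and 487 to 660 CPM, and the endothelial list (16 of 17 higher) to 2943 to 5665 CPM and 5871 to 9579 CPM. The part of the T cell, B cell and endothelial lists in the changes was not tested. With the melanocyte level as a covariate 0 of the 10 were called, with a median log2 change of 0.34 beside -0.005 over all tested genes. Calls over all genes fell steeply as well, with counts given in the last section. The melanocyte sums of the 2 arms did not overlap, so this fit cannot cleanly separate melanoma content from treatment.
Scaling the lungs on resident markers (alveolar, endothelial and mural genes) instead of TMM shifted the median over all tested genes to -0.74 and the share of calls that were higher from 50.1% to 13.9%. On that scale the median of the 10 was 0.05, 2 were higher (Gbp5 by 0.54 and Gbp8 by 1.31), Irgm1 was lower, at -0.93, and Gbp3, Gbp7 and Irgm2 turned to -0.14, -0.036 and -0.092, none of these 3 called.

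In the libraries labelled monocytes, 7 of the 10 genes were higher after propranolol and 0 lower, where 14.3% of the 18236 tested genes were higher and 30.5% were called. The median of the 10 was 0.51, beside 0.02 over all genes tested. Gbp5 moved most among those called, from 35.9, 34.7, 32.4 and 34.0 CPM to 76.4, 75.6, 52.0 and 51.1 CPM in libraries 1 to 4. All treated libraries exceeded all untreated ones, treated libraries 1 and 2 lay well above 3 and 4, and the log2 change was 0.90 ± 0.13 (adjusted p = 0.000448). Gbp2 rose by 0.55 ± 0.09 and Gbp3 by 0.42 ± 0.07. Gbp8 read 7.86, 9.59, 12.5 and 15.7 CPM and then 32.0, 24.8, 11.7 and 9.49 CPM. Only treated libraries 1 and 2 exceeded the untreated range, and the change of 0.76 ± 0.36 was not called (adjusted p = 0.132), though without treated library 4 it was (0.99, adjusted p = 0.0374). Gbp7 was not called either, at 0.19 ± 0.07 (adjusted p = 0.0652), but was without treated library 3 (0.25, adjusted p = 0.0132) or 4 (0.22, adjusted p = 0.0495).

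Iigp1 was the most abundant of the effectors here, at 159, 157, 145 and 147 CPM untreated and 306, 284, 195 and 186 CPM treated. It rose by 0.68 ± 0.14 without overlap (adjusted p = 0.00482), with treated libraries 1 and 2 again above 3 and 4. Tgtp2 rose by 0.48 ± 0.12, Igtp by 0.54 ± 0.12 and Irgm1 by 0.38 ± 0.07. Irgm2 overlapped, at 98.0, 91.4, 87.6 and 89.2 CPM and 117, 107, 88.7 and 87.3 CPM, and was not called, at 0.12 ± 0.09 (adjusted p = 0.314). Among the treated libraries the T cell list was high where most of the 10 genes were high, with summed levels of 1949 and 1706 CPM in treated libraries 1 and 2 and of 628 and 481 CPM in libraries 3 and 4. Untreated libraries 1 to 4 had 243, 459, 920 and 1056 CPM, with 3 of the 19 T cell genes called higher. The summed level of the 10 genes did not rise with the T cell sums there, at 756, 728, 704 and 713 CPM. Gbp8 stood in the order of the T cell sums in both arms. The cytotoxic lymphocyte list (16 of 16 higher) summed to 50.1 to 55.9 CPM untreated and 146 to 205 CPM treated, and the melanocyte list (14 of 16 higher) to 4912 to 6166 CPM and 6102 to 9018 CPM. The B cell list (16 of 16 higher) summed to 490 to 776 CPM and 1091 to 1219 CPM, and the endothelial list (16 of 17 lower) to 12401 to 13515 CPM and 9416 to 9667 CPM. The part of these in the changes was not tested. With the close libraries summed, 2 samples against 2, the log2 changes were nearly the same but 3 of the 10 were called: Gbp2 (0.54, adjusted p = 0.0489), Gbp3 (0.41, adjusted p = 0.0441) and Gbp5 (0.88, adjusted p = 0.0399). Calls fell over all tested genes too, to 1.98% higher and 4.69% lower. Scaling on monocyte markers shifted the median over all genes to -0.35 and the share of calls that were higher from 47.1% to 3.51%. Then 1 of the 10 was called, Gbp5 at 0.55, and Gbp7 and Irgm2 turned to -0.17 and -0.23, neither called.

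In the libraries labelled CD4 T cells, 9 of the 10 genes were higher after propranolol and Gbp8 was lower, where 30.1% of the 16550 tested genes were higher, 29.9% lower and 60.0% called in all. The median log2 change of the 10 was 1.73, beside -0.04 over all tested genes, and the summed level of the 10 genes was 702, 715, 718 and 725 CPM in the untreated and 1962, 1789, 1907 and 1945 CPM in the treated libraries.
The changes of 7 genes lay between 1.67 and 1.97. Gbp3 went from 31.1, 36.5, 40.2 and 40.4 CPM to 146, 141, 149 and 146 CPM. The treated libraries were tightly grouped, far above the untreated ones, and the change was 1.97 ± 0.08 (adjusted p = 3.09e-09). Gbp5 rose by 1.93 ± 0.11 and Gbp2 by 1.76 ± 0.07. Gbp7 rose less, from 124, 123, 124 and 129 CPM to 169, 140.1, 155 and 159 CPM. Its groups did not overlap, but treated library 2 came close to the untreated ones, and the change was 0.32 ± 0.06 (adjusted p = 0.00125). Gbp8 went the other way, from 74.4, 64.7, 71.9 and 67.7 CPM to 58.6, 24.4, 45.3 and 48.4 CPM. All treated libraries were lower, library 2 by far the most, and the change was -0.65 ± 0.20 (adjusted p = 0.0142). Without treated library 2 it was -0.44 (adjusted p = 0.000639), and over the alternatives other than marker scaling it ranged from -0.82 to -0.44, with adjusted p values up to 0.0406.

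All 3 regulators rose steeply in these libraries. Irgm2 went from 75.1, 79.0, 75.0 and 72.8 CPM to 275, 268, 283 and 271 CPM, a log2 change of 1.86 ± 0.05 (adjusted p = 1.51e-10). Igtp, the most abundant member per kilobase in both arms, went from 129, 121, 118 and 121 CPM to 388, 389, 385 and 397 CPM. In both genes each arm spanned a narrow range and the arms were far apart, and Igtp changed by 1.67 ± 0.05. Irgm1, which did not pass the test in lung, rose here by 1.70 ± 0.05, from 93.6, 97.4, 94.9 and 95.7 CPM to 297, 315, 307 and 322 CPM. Of the effectors, Tgtp2 rose by 1.77 ± 0.08 and Iigp1 by less, 0.87 ± 0.08. Marker lists of other cell types also moved, most of those below upwards, and their part in these changes was not tested. Lower sums were found for the endothelial list (3 of 14 higher, 6 lower), at 236 to 246 CPM untreated and 174 to 189 CPM treated. The alveolar type 2 list (4 of 6 higher, 1 lower) went from 159 to 164 CPM to 109 to 124 CPM, and the platelet list (1 of 9 higher, 4 lower) from 153 to 161 CPM to 90.5 to 123 CPM. The plasma cell list (2 of 9 higher, 2 lower) summed to 14989 to 16218 CPM and 15492 to 21864 CPM. The B cell list (15 of 16 higher) summed to 8826 to 10155 CPM untreated and 11475 to 12923 CPM treated, and the cytotoxic lymphocyte list (7 of 16 higher, 2 lower) to 459 to 515 CPM and 695 to 796 CPM. The neutrophil list (14 of 14 higher) summed to 262 to 362 CPM untreated and 1499.9 to 2086 CPM treated, the dendritic cell list (7 of 13 higher, 1 lower) to 312 to 324 CPM and 1350.1 to 1477 CPM, and the list of non-classical monocytes (9 of 15 higher, 1 lower) to 1429 to 1535 CPM and 4653 to 5488 CPM. The list of classical monocytes (10 of 15 higher, 1 lower) summed to 950 to 1068 CPM untreated and 1622 to 1737 CPM treated. Cd14, a monocyte gene that moved far more than that list, went from 0.542 to 1.69 CPM up to 69.8 to 84.2 CPM. The T cell list itself (13 of 19 higher, 3 lower) summed to 6507 to 6617 CPM and 9251 to 10249 CPM, and scaling on it shifted the median over all genes to -0.42 and the share of calls that were higher from 50.2% to 26.5%. On that scale 8 genes were still higher and Gbp8 lower, at -1.04, and Gbp7 turned to -0.06 and was not called.

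**Figure D2:**
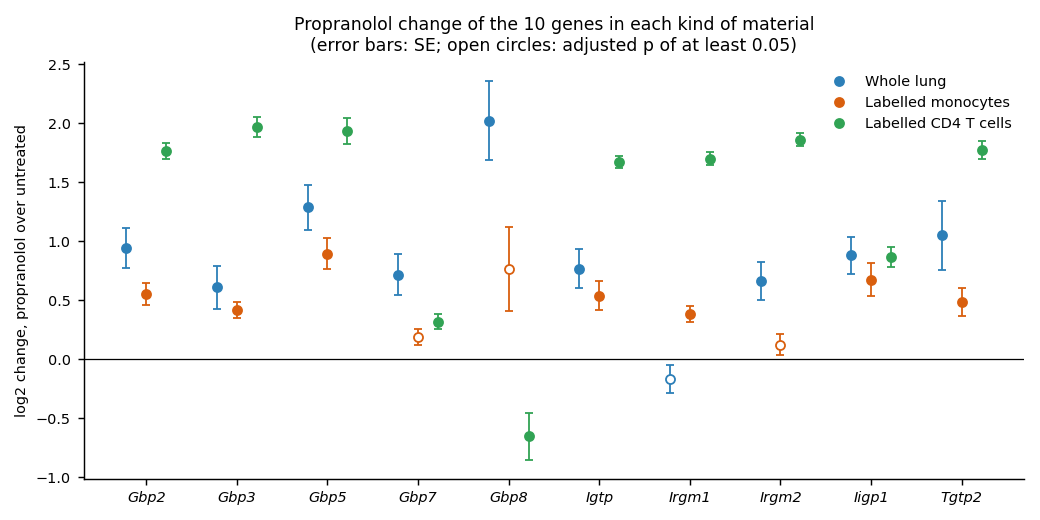
Log2 change with propranolol of the 10 genes in whole lung (blue), libraries labelled monocytes (orange) and libraries labelled CD4 T cells (green), with SE bars and open circles where the adjusted p was at least 0.05. Gbp8 is the highest point in lung (2.02) and the only called point below 0 in CD4 T cell libraries (-0.65), and Irgm1 is below 0 in lung (-0.17, not called) and 1.70 in CD4 T cell libraries; the signs of Gbp3, Gbp7 and Irgm2 in lung, of Gbp7 and Irgm2 in the monocyte libraries and of Gbp7 in the T cell libraries turn under marker scaling.

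The differences between kinds of material were tested as interactions, and the 3 differences share libraries with one another. Between CD4 T cell libraries and lung, 5 of the 10 changes were larger and 2 smaller in the T cell libraries, where 24.0% of all tested genes had a larger and 32.2% a smaller change, 56.2% in all. The median of the 10 was 0.60, beside -0.26 over all genes tested. A joint fit scales both kinds of material together, so its differences need not equal those between the separate fits. Irgm1 differed by a log2 of 1.69 ± 0.16 (adjusted p = 5.81e-08), Gbp3 by 1.19 ± 0.25, Irgm2 by 1.02 ± 0.22, Igtp by 0.73 ± 0.22 and Gbp2 by 0.65 ± 0.23. Gbp8 differed in the other direction, by -2.84 ± 0.43 (adjusted p = 1.76e-05). Gbp7 did so by -0.57 ± 0.23 (adjusted p = 0.0426), a call that was lost (-0.59 to -0.44) without untreated lung library 1 or 2, treated lung library 2, 3 or 4, any 1 untreated CD4 T cell library, or treated CD4 T cell library 2, 3 or 4. Gbp5, Iigp1 and Tgtp2 were not called, though Gbp5 (0.59, adjusted p = 0.0397) and Tgtp2 (0.75, adjusted p = 0.0233) were without untreated lung library 2. With the lungs scaled on resident markers 8 of the 10 were larger in the T cell libraries and Gbp8 smaller (-1.99), and Gbp7 (0.32) and Iigp1 (0.74) changed sign.

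Between the libraries labelled CD4 T cells and monocytes, 7 changes were larger in the T cell libraries and Gbp8 was smaller, where 23.8% of all tested genes were larger, 24.0% smaller and 47.7% called. Irgm2 differed most, by 1.75 ± 0.11 (adjusted p = 3.96e-10), followed by Gbp3 with 1.56 ± 0.12 and Irgm1 with 1.33 ± 0.09. Gbp7 and Iigp1 were not called, at 0.15 ± 0.11 and 0.20 ± 0.19. Gbp8 differed by -1.39 ± 0.45 (adjusted p = 0.0167), which was not called without treated monocyte library 1 (-1.04, adjusted p = 0.0506) or with the close libraries summed (-1.36, adjusted p = 0.0513). Between the libraries labelled monocytes and lung, Gbp7 (-0.65), Gbp8 (-1.38) and Irgm2 (-0.66) changed less and Irgm1 (0.43) more, where 32.3% of all genes tested had a smaller and 25.2% a larger change, 57.4% in all. All 3 smaller changes lost their calls with the close libraries summed (Gbp7 -0.45, Gbp8 -1.21, Irgm2 -0.47) and with no filter (-0.43, -1.16 and -0.45). The median over all genes tested was then -0.0005 and -0.19. The Gbp7 and Irgm2 calls were lost without untreated lung library 1, treated lung library 4 or untreated monocyte library 1 or 2, with values of -0.49 to -0.43. In those fits the median over all genes tested moved from -0.17 to between -0.013 and 0.003, so the whole scale shifted with these calls. Gbp8 lost its call (-1.33 to -1.15) without untreated lung library 1, 4 or 5, treated lung library 3 or 4, untreated monocyte library 2, 3 or 4, or treated monocyte library 3 or 4. Gbp2 gained one without untreated lung library 3 (-0.51, adjusted p = 0.0369) or treated lung library 5 (-0.49, adjusted p = 0.0399). Irgm1 lost its call when the filter was a mean of 5 CPM or more (0.32, adjusted p = 0.0899) and kept it with the close libraries summed (0.62, adjusted p = 0.0206) and with the lungs scaled on resident markers (1.30), under which 8 of the other differences changed sign.

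Another 13 genes listed with the 2 families were in the tables. One of them, Gvin1, codes for a very large inducible GTPase and belongs to neither family. In the CD4 T cell libraries 3 of them were higher and 0 lower, where 30.1% of all tested genes were higher, namely Tgtp1, the near-copy of Tgtp2 on chromosome 11, by 2.38 ± 0.08, and the chromosome 18 genes Gm4951 by 0.97 ± 0.23 and Gm4841 by 0.47 ± 0.16, and their median log2 change was 0.15. The neighbours of Gbp8 on chromosome 5 were not called, and Gbp4 and Gbp9 are given as examples chosen after their values were seen. Gbp4 read 180.0, 172, 173 and 177 CPM untreated and 201, 103, 163 and 170.2 CPM treated, and Gbp9 read 118, 127, 133 and 135 CPM and 122, 65.7, 103 and 108 CPM. In both, treated library 2 was the lowest, as it was for Gbp8, and the changes were -0.14 ± 0.15 and -0.36 ± 0.15 (adjusted p = 0.457 and 0.0534). In lung the same genes rose, Gbp4 by 1.57 ± 0.22 and Gbp9 by 1.13 ± 0.19, within a list of 10 higher and 1 lower (Irgq, -0.18 ± 0.06) of 13 and a median of 1.13. Some of the higher ones were barely detected in lung. Untreated and treated means were 0.0773 and 0.407 CPM for Gbp2b, 0.253 and 0.861 CPM for Gbp10, and 0.486 and 0.790 CPM for Gm4841. Over all genes in lung, 35.5% were higher and 35.3% lower. The T cell change differed from the lung change by -1.88 ± 0.32 for Gbp4 and -1.67 ± 0.30 for Gbp9 (adjusted p = 7.18e-05 and 0.000103). In the monocyte libraries Gbp2b (1.81 ± 0.21), Tgtp1 (0.94 ± 0.16) and Gvin1 (0.46 ± 0.12) were higher, 3 of 13, with a median of 0.33, and with the close libraries summed 1 of 13 was, Gbp2b at 1.82. The share of all genes higher there was 14.3%, and 1.98% with the close libraries summed. Gbp4, Gbp8 and Gbp9 share 60 or 61 exon bases pairwise, Igtp and Irgm2 share 162, and Tgtp1 and Tgtp2 are near-identical, so counts within these sets are uncertain in part.

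**Figure D3:**
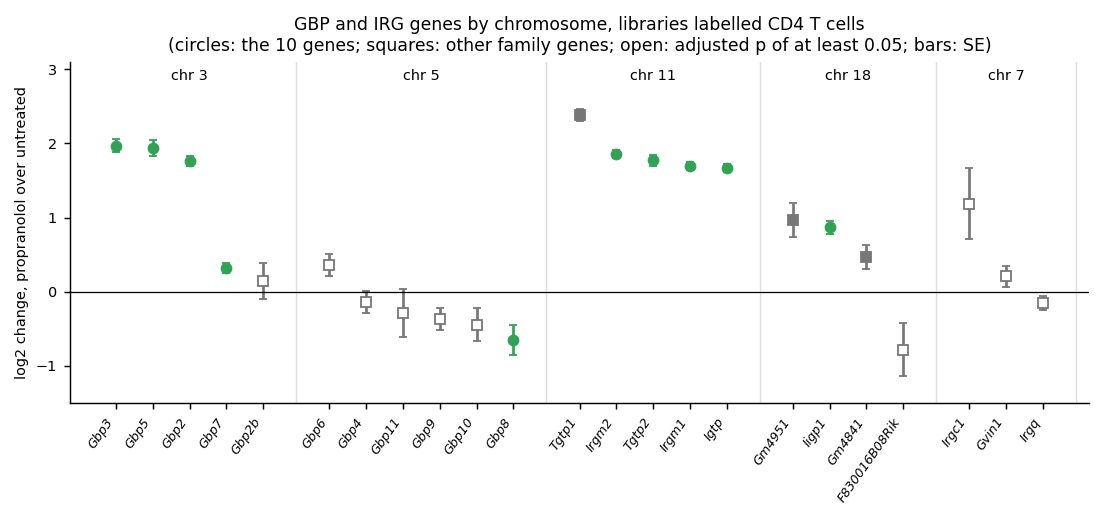
Log2 change with propranolol in the libraries labelled CD4 T cells for the 10 genes (circles) and the other genes listed with the GBP and IRG families (squares), arranged by chromosome, with SE bars and open symbols where the adjusted p was at least 0.05. On chromosome 5 Gbp8 is the only gene called (-0.65) and on chromosome 11 all 5 genes lie between 1.67 and 2.38, whereas Gbp7 (0.32) and Gbp2b (0.15, not called) are the lowest on chromosome 3; Gbp7 turns to -0.06 under T cell marker scaling.

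Upstream of the GTPases, 9 genes of interferon-γ signalling (the cytokine, its receptor, kinases and regulators) were followed, and 9 of 9 were higher in the CD4 T cell libraries, with a median of 2.08. Over all genes tested there, 30.1% were higher. Ifng, the cytokine itself, went from 2.32 ± 0.456 to 21.3 ± 3.12 CPM (SD, n = 4), a log2 change of 3.18 ± 0.17. The receptor subunits Ifngr1 and Ifngr2 rose by 2.37 ± 0.05 and 2.75 ± 0.08, the kinase Jak2 by 2.08 ± 0.06 and the transcription factor Irf1 by 2.08 ± 0.05. In lung 4 of the 8 that could be tested were higher and 2 lower, with a median of 0.34, beside 35.5% higher and 35.3% lower of all genes. Irf8, a factor of myeloid and B cells, rose by 1.21 ± 0.13, Ifngr1 by 0.73 ± 0.13, Irf1 by 0.63 ± 0.14 and the kinase Jak1 by 0.39 ± 0.08, while Ifngr2 fell by 0.51 and the phosphatase Ptpn2 by 0.58 on the log2 scale. Ifng itself was too low in lung to be tested, at 0.0827 ± 0.0521 CPM untreated and 0.228 ± 0.0897 CPM treated (SD, n = 5). In the monocyte libraries 5 of 9 were higher and 0 lower (1 of 9, Irf8, with the close libraries summed), with a median of 0.21, Irf8 at 0.64 ± 0.06 and Ifng at 1.13 ± 0.31, and Irf1 was not called at 0.07 ± 0.08 (adjusted p = 0.528). Ifng was low in these libraries, at 0.333 ± 0.107 CPM untreated and 0.727 ± 0.126 CPM treated (SD, n = 4). With the close libraries summed it was not called (adjusted p = 0.106). The share of all genes higher there was 14.3%, and 1.98% with the close libraries summed.

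Other interferon-γ response genes split in the T cell libraries, with 15 of 21 higher, 4 lower and a median of 0.55. Over all genes tested there, 30.1% were higher and 29.9% lower. The chemokine Cxcl10 rose by 5.82 ± 0.10, the checkpoint ligand Cd274 by 2.47 ± 0.08 and the adhesion gene Icam1 by 1.77 ± 0.07. The 4 lower genes, named after their values were seen, were the peptide transporter subunit Tap2 (-0.62 ± 0.06) and the immunoproteasome subunits Psmb8 (-0.43 ± 0.09), Psmb9 (-0.30 ± 0.07) and Psmb10 (-0.16 ± 0.06), while Tap1 (0.25 ± 0.05), Tapbp (0.22 ± 0.06) and B2m (1.35 ± 0.06), which also serve antigen presentation, rose. In lung this list had 17 of 22 higher and 1 lower (Cxcl10, -0.55 ± 0.22, named after its value was seen), beside 35.5% and 35.3% of all genes. The 3 with the smallest p were the class II transactivator Ciita at 1.54 ± 0.14, Tap1 at 0.85 ± 0.10 and Nlrc5 at 1.09 ± 0.13. In the monocyte libraries this list had 15 of 24 higher and 1 lower (Ly6a, -0.22 ± 0.03, likewise named afterwards), beside 14.3% and 16.1% of all genes. Cd274 was at 0.57 ± 0.06, Nlrc5 at 0.41 ± 0.05 and Tap1 at 0.53 ± 0.07. With the close libraries summed 5 of 24 were higher and 0 lower, beside 1.98% and 4.69% of all genes. They were these 3 and, named after their values were seen, Ido1 and Serpina3g.

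Of the type I interferon response list, 7 of 28 tested genes were higher and 12 lower in the T cell libraries, with a median of -0.18, beside 30.1% higher and 29.9% lower of all genes. Ifit2, an antiviral gene induced by interferon, fell by 1.52 on the log2 scale from 50.3 ± 0.727 to 17.5 ± 1.21 CPM, whereas the ubiquitin-like Isg15 rose by 1.96 ± 0.10 and the DNA sensor Ifi204 by 1.93 ± 0.12. In lung 9 of 28 were higher and 4 lower, beside 35.5% and 35.3% of all genes, with Bst2 (-0.72 ± 0.10), Oas1a (-0.73 ± 0.11), Rsad2 (-0.94 ± 0.14) and, named after its value was seen, Eif2ak2 (-0.42 ± 0.11) lower. In the monocyte libraries 8 were higher and 4 lower of 28, with the nucleic acid sensor Zbp1 at 0.70 ± 0.08, the 1 of 28 still called with the close libraries summed. Shares over all genes there were 14.3% higher and 16.1% lower, and 1.98% and 4.69% with the close libraries summed. The genes of type I and III signalling gave 5 higher and 2 lower of 10 in the T cell libraries, 5 and 2 of 10 in lung, and 2 and 1 of 10 in the monocyte libraries (0 and 0 with the close libraries summed). Called in either direction were 60.0% of all genes in the T cell libraries, 70.8% in lung and 30.5% in the monocyte libraries. Partners of the GTPases, which attach ATG8 proteins to vacuoles, prenylate GBPs or form inflammasomes, were higher in 17 and lower in 4 of 27 in the T cell libraries, beside 30.1% and 29.9% of all genes. The 3 partners with the smallest p were the autophagy receptor Sqstm1 at 2.07 ± 0.06, Map1lc3a at 3.18 ± 0.13 and Atg7 at 1.48 ± 0.06. In lung 7 were higher and 14 lower of 28, beside 35.5% and 35.3% of all genes. The pore-forming Gsdmd was at 1.27 ± 0.15, the conjugation enzyme Atg3 at -0.45 ± 0.06 and the farnesyltransferase subunit Fntb at -0.72 ± 0.10. The monocyte libraries had 5 higher and 7 lower of 27, beside 14.3% and 16.1% of all genes. With the close libraries summed 2 were higher (Casp4 and Aim2) and 0 lower, beside 1.98% and 4.69% of all genes.

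**Figure D4:**
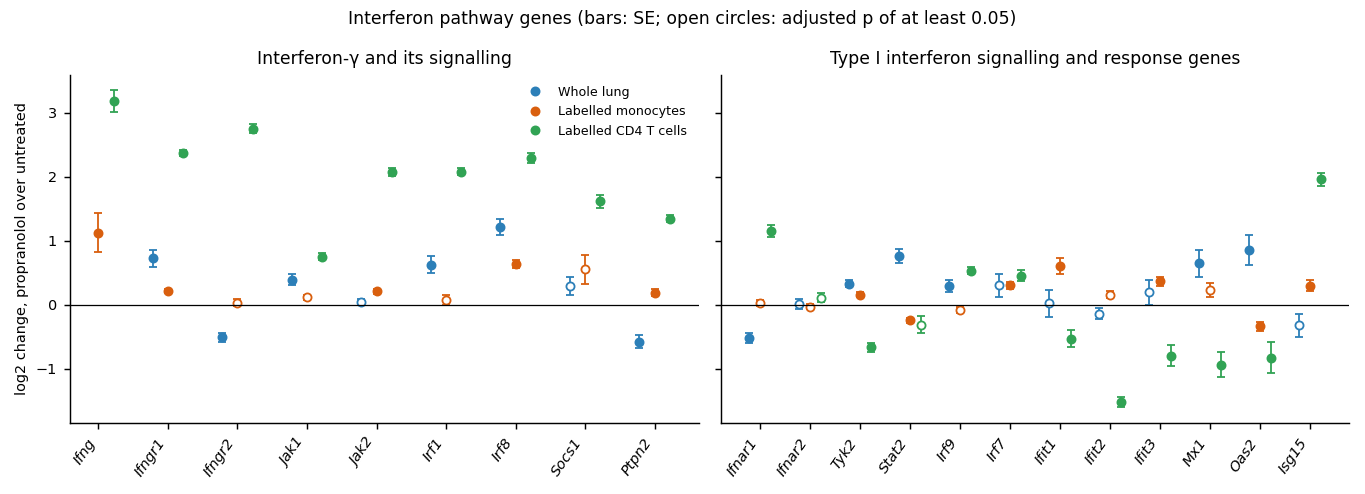
Log2 change with propranolol of interferon-γ and its signalling genes (left) and of 12 type I interferon signalling and response genes (right) in the 3 kinds of material, with SE bars and open circles where the adjusted p was at least 0.05. In the CD4 T cell libraries (green) all 9 genes on the left lie above 0, from 0.75 for Jak1 to 3.18 for Ifng, while on the right Ifit2 is at -1.52 and Isg15 at 1.96; Ifng in lung was not tested and has no point.

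Across the 26 libraries, each gene was set beside the mean of the other 9 on a log2(CPM + 1) scale, with 1 TMM scaling for all libraries. Gbp5 followed the others most closely (Pearson r = 0.992) and Tgtp2 next (0.981), while Gbp8 (0.756) and Iigp1 (0.586) were farthest from them. In deviations from the 6 group means, where the group differences are removed, r ran from 0.721 for Gbp8 and 0.842 for Iigp1 to 0.952 for Gbp5. Among 9548 other named genes with a mean level of 5 CPM or more in both tables, those most like the mean of the 10 over all libraries were Arhgef3 (r = 0.975), Inpp5d (0.972), Runx2 (0.971), Birc3 (0.971), D16Ertd472e (0.970) and Neurl3 (0.969). In deviations from the group means they were Irf1 (0.945), D16Ertd472e (0.931), Trim21 (0.911), Cpm (0.906), AI504432 (0.906) and Sidt1 (0.905). These are descriptions of libraries that share a tissue, a table and a scaling, and libraries of 1 group are not independent of one another in such values.

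**Figure D5:**
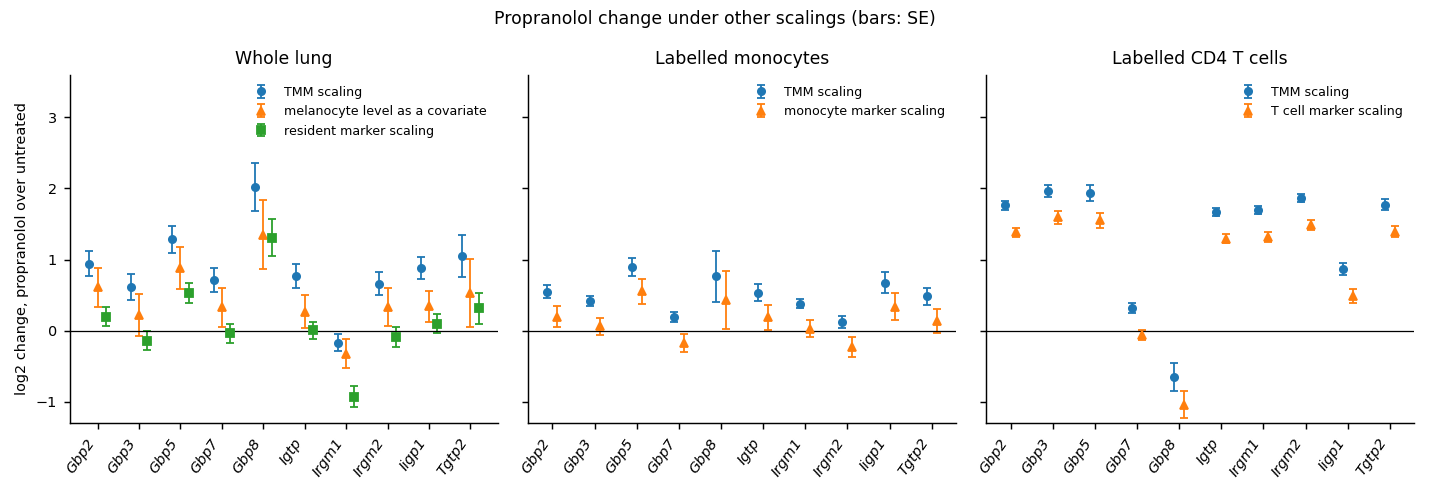
Log2 change with propranolol of the 10 genes under TMM (circles), with the melanocyte level as a covariate (lung, triangles) and with libraries scaled on cell type markers (squares in lung, triangles elsewhere), with SE bars. In lung the marker scaling moves the genes towards or below 0, with Gbp8 at 1.31 and Irgm1 at -0.93, whereas in the CD4 T cell libraries 8 genes stay above 0 and Gbp7 turns to -0.06.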

How the data were processed

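RNA was measured as polyA libraries in 26 samples. The authors deposited raw counts per gene in 2 tables, 1 for whole lung and the sorted monocytes and 1 for CD4 T cells, made with STAR 2.7.9 and featureCounts of Subread 2.0.3 on GRCm39, per the submitters' processing notes. The strand setting of the counting is not stated in the labels. Symbols were found for 52083 of the 55416 genes (94.0%), and 0 columns were left unused. The counts were fitted with edgeR 4.0.16 (R 4.3.3), using TMM scaling, the default filterByExpr (minimum count 10) and the quasi-likelihood test across all genes with Benjamini-Hochberg adjustment, called at 0.05. Each kind of material had its own fit, and differences between changes were interaction terms of a joint fit. DESeq2 1.42.0 and limma 3.58.1 served as alternatives, and the scripts were tested on simulated data. Marker scaling took each library's size factor from the median ratio of the marker genes (alveolar, endothelial and mural lists in lung, the 2 monocyte lists, or the T cell list). The chi-square between 2 libraries used genes averaging 50 or more counts. Exon lengths came from GENCODE M21 on GRCm38, so no positions are given for the counted genes. Counts of near-identical or overlapping genes (Tgtp1 and Tgtp2, Igtp and Irgm2, Gbp8 with Gbp4 and Gbp9, Gbp7 with Gm43802) may be split by the counting.

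All 10 genes were named throughout. Of each pathway list, Ifng, Ifngr1, Ifngr2, Jak2, Irf1 and at most 3 more with the smallest p were named, and 1 further gene of the signalling list is not reported here. The genes and lists were chosen with earlier results of these data known.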

Additional observations from a re-analysis of the deposited data

Results flagged for a closer look

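In the treated lungs, Gbp2 in library 5 read 55.9 CPM, far below the other 4. It was the 1 value set apart from its group in 60 groups checked, where chance sets apart about 1 in 20.

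The change with propranolol differed between kinds of material in 19 tests of the difference, given as log2 values. Between the libraries labelled monocytes and lung, the difference was -0.65 for Gbp7, -1.38 for Gbp8, 0.43 for Irgm1 and -0.66 for Irgm2. Between the libraries labelled CD4 T cells and lung, it was 0.65 for Gbp2, 1.19 for Gbp3, -0.57 for Gbp7, -2.84 for Gbp8, 0.73 for Igtp, 1.69 for Irgm1 and 1.02 for Irgm2. Between the libraries labelled CD4 T cells and monocytes, it was 1.23 for Gbp2, 1.56 for Gbp3, 1.05 for Gbp5, -1.39 for Gbp8, 1.15 for Igtp, 1.33 for Irgm1, 1.75 for Irgm2 and 1.31 for Tgtp2.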

How the results depend on the processing

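In lung, the melanocyte covariate left 0 of the 10 genes higher (9 without it) and 903 higher and 901 lower of all genes (6614 and 6575 without it). Resident marker scaling gave 2 higher and 1 lower of the 10 and 1766 and 10938 of all genes, and turned Gbp3 to -0.14, Gbp7 to -0.036 and Irgm2 to -0.092. Leaving out 1 lung left 0 to 1 of the 10 lower. In the monocyte libraries (7 of the 10 higher, 2614 of all genes higher and 2939 lower), monocyte marker scaling gave 1, 326 and 8967, with Gbp7 at -0.17 and Irgm2 at -0.23, and close libraries summed gave 3, 409 and 968, with 29.7% of calls higher. The replicate block gave 1454 of all genes higher there. In the CD4 T cell libraries, T cell marker scaling gave 2833 higher and 7864 lower of all genes (4982 and 4947 under TMM), with Gbp7 at -0.062.

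For the difference between monocyte libraries and lung, 3 of the 10 were smaller and 1 larger. The smaller ones became 0 with no filter, 5 at a mean of at least 5 CPM, 0 with close libraries summed and 0 with resident scaling, and 0 to 4 leaving out 1 library. The larger one became 0 at a mean of at least 5 CPM and 4 with resident scaling. Over all genes, 6558 were smaller (3854 summed, 1887 resident) and 5115 larger (10032 resident, which put 84.2% of calls and the median of 0.71 above 0). Resident scaling turned Gbp2 to 0.35, Gbp3 to 0.55, Gbp5 to 0.35, Gbp7 to 0.22, Igtp to 0.53, Irgm2 to 0.21, Iigp1 to 0.57 and Tgtp2 to 0.17. For CD4 T cell libraries minus lung, 2 of the 10 were smaller, but 1 with DESeq2 size factors, the DESeq2 test, no filter or resident scaling, and 1 to 2 leaving out 1 library. Resident scaling made 8 larger, with 8465 larger and 2977 smaller of all genes (74.0% of calls larger), Gbp7 at 0.32 and Iigp1 at 0.74. Iigp1 was 0.0501 with no filter, and 4112 of all genes were smaller at a mean of at least 5 CPM. For CD4 T cell minus monocyte libraries, 1 of the 10 was smaller, but 0 with the replicate block (Gbp8 -1.34, adjusted p = 0.0664), 0 with close libraries summed, and 0 to 1 leaving out 1 library. Of untreated levels, 5474 genes were lower in CD4 T cell libraries than in lung at a mean of at least 5 CPM (8386 otherwise). Where no construction shows it, the cause was not tested.

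Replicate numbers were not taken to pair libraries, since in no kind of material was every same-number correlation of deviations over 0.1. These were -0.14 to 0.65 in lung, -0.64 to -0.42 in the monocyte libraries and -0.07 to 0.08 in the CD4 T cell libraries. In lung libraries 1 and 3 had the 2 highest values, and 1 lung of 5 correlated best with its own number. CD4 T cell libraries 1, 2 and 3 each correlated best with their own number, but only at 0.01, 0.06 and 0.08, and library 4 with number 1. With the replicate block Gbp3 was higher in untreated CD4 T cell libraries than in lung (0.40, adjusted p = 0.0245). Summing close libraries and scaling the lungs on resident markers in the differences were chosen after seeing the data.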
